A study of Mus musculus with 2 samples.

Results

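Microfold cells are epithelial cells that lie over lymphoid follicles of the gut and carry bacteria and other particles across the epithelium to the immune cells beneath. Their differentiation starts when the receptor RANK is engaged by its ligand RANKL, and it runs through NF-kappaB and then the transcription factors Spi-B, Sox8 and Esrrg. The thymic medulla holds epithelial cells that take on programmes of peripheral cell types, microfold cells among them, and medullary thymic epithelial cells (mTEC) themselves need the same RANK signal. The genes described here are 6 named microfold cell genes: the surface receptor gene Gp2, the antibacterial protein gene Pglyrp1, the transcription factor genes Spib and Sox8, and the cytoskeletal genes Tnfaip2 and Marcksl1. All 6 were measured, each through 1 probe set that carries its symbol alone, among 19937 named genes in all. The list was chosen with results of these arrays already known, so its counts are descriptions.

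The data were 2 whole-transcript microarrays of RNA from mTEC of B6 mice aged 6 weeks, 1 array per genotype. Both groups carried floxed Hdac3 alleles (HDAC3fl/fl). The group labelled WT is listed without Cre, and the group labelled HDAC3cKO also had Foxn1-Cre, which acts in thymic epithelium as a whole and not in mTEC alone. Cells were sorted as EpCAM+, CD45-, Ly51low and MHC-II low, about 30000 cells were collected, and 10 to 30 mice were typically pooled for HDAC3cKO. With 1 array a group there is no replicate error and no test, so "higher" and "lower" below describe these 2 arrays, and the number of arrays limits the precision. Levels are log2 RMA intensities (a background-corrected, normalized and summarised brightness), a difference is HDAC3cKO minus WT, and a gene is counted when it differs by at least 2-fold.

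Hdac3, the targeted gene, was at 10.90 on the WT-labelled array and 11.64 on the HDAC3cKO-labelled array, which goes against the label, and which exons its probe set covers is not stated here. Every direction below therefore rests on the labels. Epcam, the epithelial antigen of the sort, was at 11.33 on the WT-labelled array and 11.06 on the HDAC3cKO-labelled array. Ptprc, which encodes the excluded antigen CD45, was at 9.63 and 8.79, above the median gene level of 8.03 on both.

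Of the 6 microfold cell genes, Gp2, Pglyrp1 and Spib were lower by 2-fold or more on the HDAC3cKO-labelled array, Sox8 was lower by less than that, and Tnfaip2 and Marcksl1 were higher by less than that. The 3 of 6 genes lower by 2-fold or more stand beside 5.88% of all 19937 genes, and the 0 of 6 higher by 2-fold or more beside 2.97%. The median difference of the 6 was -1.10, beside 0.01 for all genes. The genes did not move as a block. The 3 genes with the lower values were a receptor, a secreted antibacterial protein and a transcription factor, and the 2 higher ones were the cytoskeletal genes. In RNA pooled from sorted cells, fewer cells of a type and less RNA per cell cannot be told apart.

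**Figure D1:**
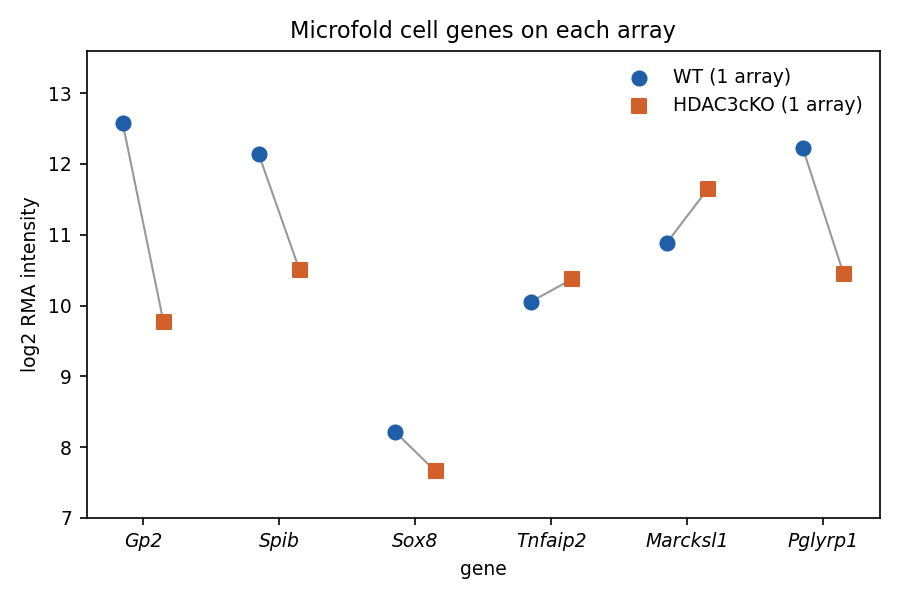
Level of each of the 6 microfold cell genes (x axis) as log2 RMA intensity (y axis, starting at 7), with a blue circle for the WT array and an orange square for the HDAC3cKO array, 1 array each and no error bar. The lines of Gp2, Spib and Pglyrp1 fall steeply, that of Sox8 slightly, and those of Tnfaip2 and Marcksl1 climb; levels of different genes are not comparable because probe sets differ.

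Gp2 encodes glycoprotein 2, a membrane-anchored receptor of mature microfold cells that binds the FimH tip of bacterial type 1 pili. It was the gene of the 6 with the largest difference. Its intensity was 6101 on the WT-labelled array and 870.0 on the HDAC3cKO-labelled array, or 12.57 and 9.76 on the log2 scale. The difference of -2.81, or 7.01-fold lower, lay low among all genes, of which 0.667% had a lower one. Gp2 is not a typical blood cell gene and is best known otherwise from pancreatic acinar cells. Umod, a close relative and the next measured gene on the chromosome, encodes uromodulin of the kidney, and it was at 8.24 and 7.28, a difference of -0.96 that is just short of 2-fold.

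Pglyrp1 encodes a peptidoglycan recognition protein, secreted by microfold cells and stored in neutrophil granules. Its intensity was 4773 on the WT-labelled array and 1391 on the HDAC3cKO-labelled array, or 12.22 and 10.44 on the log2 scale. The difference of -1.78, or 3.43-fold lower, lay low among all genes, of which 2.39% had a lower one. The related genes Pglyrp3 and Pglyrp4, which are expressed in skin and other surface epithelia and are neighbours on their chromosome, were at 9.09 and 6.83 and at 8.86 and 6.50, differences of -2.27 and -2.35. The mean level of both relatives was below the median gene, and Pglyrp2 was not analysed here. Trem1, a myeloid receptor that Pglyrp1 can bind, was at 5.10 and 4.81, well below the median gene level.

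Spib encodes Spi-B, the Ets-family transcription factor without which microfold cells do not mature, and B cells and plasmacytoid dendritic cells express it too. Its intensity was 4504 on the WT-labelled array and 1448 on the HDAC3cKO-labelled array, or 12.14 and 10.50 on the log2 scale. The difference of -1.64, or 3.11-fold lower, lay low among all genes, of which 2.72% had a lower one. Its paralog Spi1, which encodes PU.1 of myeloid and B cells, was at 9.63 and 8.29, a difference of -1.34. Irf4, a transcription factor that pairs with PU.1 and Spi-B, was at 9.09 and 7.40, a difference of -1.69. Spic, the remaining paralog, differed by -0.39 from a level of 6.86.

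Sox8 encodes a transcription factor of the SoxE group that is needed for Gp2-positive, mature microfold cells. Its intensity was 298 on the WT-labelled array and 202 on the HDAC3cKO-labelled array, or 8.22 and 7.66 on the log2 scale. The difference was -0.56, or 1.47-fold lower, and 11.7% of all genes had a lower one. Sox8 was the one gene of the 6 with a mean level below the median gene. Its relatives Sox9, a factor of many progenitor cells, and Sox10, a factor of the neural crest, differed by 0.30 and 0.15.

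Tnfaip2 and Marcksl1, both genes of cell shape, were higher on the HDAC3cKO-labelled array. Tnfaip2 encodes M-Sec, which promotes membrane nanotubes together with the GTPase RalA and the exocyst, and myeloid and endothelial cells express it as well. Its intensity was 1062 on the WT-labelled array and 1323 on the HDAC3cKO-labelled array, or 10.05 and 10.37 on the log2 scale, a difference of 0.32 or 1.24-fold. Rala and Exoc3, the genes of that GTPase and of an exocyst subunit related to M-Sec, differed by -0.29 and 0.01. Marcksl1 encodes a MARCKS-like protein that binds actin and calmodulin and is expressed in many tissues. Its intensity was 1894 on the WT-labelled array and 3203 on the HDAC3cKO-labelled array, or 10.89 and 11.65 on the log2 scale. The difference of 0.76, or 1.69-fold higher, was exceeded by 5.49% of all genes, and its paralog Marcks differed by 0.33.

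**Figure D2:**
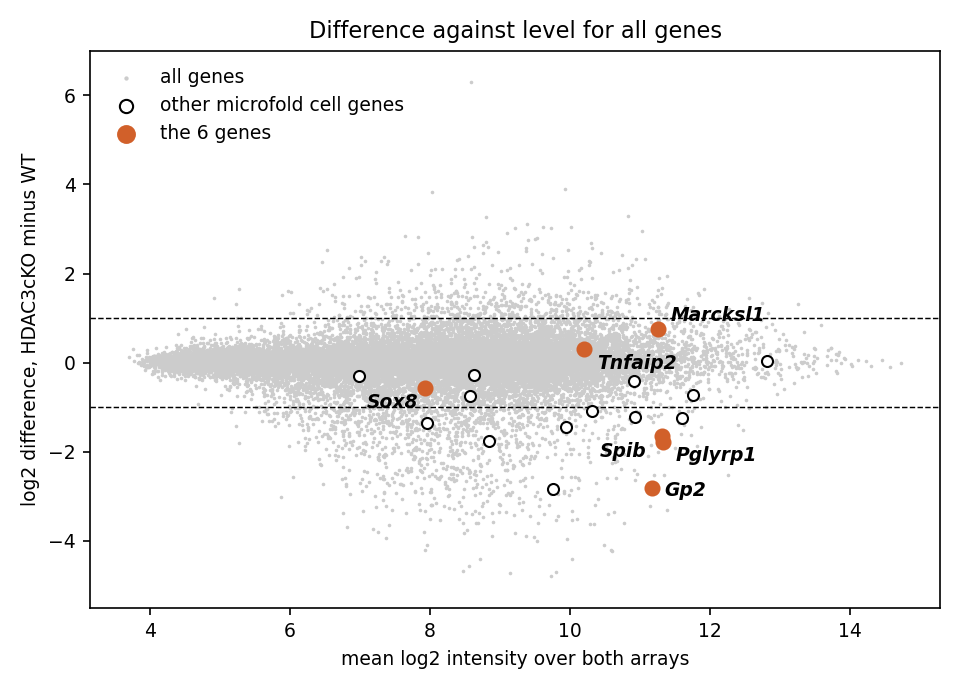
Difference HDAC3cKO minus WT (log2, y axis) against the mean log2 intensity over both arrays (x axis) for all 19937 genes in grey, the 6 microfold cell genes as orange points with names, and 13 other microfold cell genes as open circles; dashed lines mark 2-fold. Gp2, Pglyrp1 and Spib lie below the lower line at high mean levels, and Sox8, Tnfaip2 and Marcksl1 lie between the lines.

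The promoters of the 3 lower genes and of Marcksl1, the gene with the largest difference the other way, were set side by side because Spi-B and NF-kappaB act upstream in microfold cells. Each run is the 250 bases before the RefSeq transcription start (GRCm38.p6), 5′ to 3′ on the gene's strand. All 6 genes had an entry. The capitals mark matches, on either strand, to the PU box core GAGGAA, bound by Spi-B and PU.1, or to the NF-kappaB site.
Gp2, chr7:119459273-119459522, minus strand: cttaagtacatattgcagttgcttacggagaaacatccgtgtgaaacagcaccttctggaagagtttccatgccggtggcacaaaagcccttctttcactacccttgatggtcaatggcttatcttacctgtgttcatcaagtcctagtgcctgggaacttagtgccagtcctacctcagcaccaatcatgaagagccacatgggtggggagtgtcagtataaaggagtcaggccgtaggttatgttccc
Spib, chr7:44532072-44532321, minus strand: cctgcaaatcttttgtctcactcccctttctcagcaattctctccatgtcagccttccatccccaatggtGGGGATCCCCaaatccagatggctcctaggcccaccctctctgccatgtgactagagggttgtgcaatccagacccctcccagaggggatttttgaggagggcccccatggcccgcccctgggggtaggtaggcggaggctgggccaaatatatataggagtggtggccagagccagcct
Pglyrp1, chr7:18884440-18884689, plus strand: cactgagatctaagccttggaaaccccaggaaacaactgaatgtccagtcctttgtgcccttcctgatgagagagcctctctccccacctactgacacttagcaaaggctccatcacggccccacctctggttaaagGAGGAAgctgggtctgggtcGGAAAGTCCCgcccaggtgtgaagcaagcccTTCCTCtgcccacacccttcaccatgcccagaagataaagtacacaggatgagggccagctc
Marcksl1, chr4:129513331-129513580, plus strand: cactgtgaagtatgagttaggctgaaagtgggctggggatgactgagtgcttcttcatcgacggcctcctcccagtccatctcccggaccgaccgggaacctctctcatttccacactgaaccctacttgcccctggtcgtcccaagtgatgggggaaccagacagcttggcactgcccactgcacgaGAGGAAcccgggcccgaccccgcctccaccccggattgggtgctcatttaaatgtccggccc

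In this window the PU box core was found in 2 of the 6 genes, Pglyrp1 and Marcksl1, beside 23.3% of 32851 RefSeq promoters of the same length. The NF-kappaB site was found in 2 of the 6, Spib and Pglyrp1, beside 3.90% of all promoters. The Sox core AACAAT was found in none of the 6, beside 9.42% of all promoters. In Spib the NF-kappaB match is its own reverse complement, so it counts once as a place and is read on both strands. It starts 180 bases before the transcription start. In Pglyrp1 the NF-kappaB match starts 93 bases before the start and lies between PU box cores that start 113 and 62 bases before it, with no overlap. Marcksl1 has its PU box core 62 bases before the start, and the letters of these motifs are not in this window of Gp2, Sox8 or Tnfaip2. A match of letters is a description and not a bound site.

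Other genes of the microfold programme were mostly lower as well. Of 13 further microfold cell genes, 7 were lower by 2-fold or more and none higher by as much, with a median of -1.08, beside 5.88% of all genes and a median of 0.01. Ccl20, the chemokine with which microfold cells draw CCR6-bearing lymphocytes, was at 11.18 on the WT-labelled array and 8.34 on the HDAC3cKO-labelled array, a difference of -2.84. The chemokine genes Ccl6 and Ccl9, which myeloid cells share, differed by -1.75 and -1.44. Esrrg, the nuclear receptor gene that acts upstream of Sox8 in microfold cells, was at 8.63 and 7.28, a difference of -1.35. Serpinb1a, an inhibitor of neutrophil proteases, and H2-M2, a non-classical class I gene, differed by -1.24 and -1.22, and the prion protein gene Prnp by -1.08. The other 6 genes differed by less than 2-fold, among them Atoh8, which restrains microfold cell differentiation, by -0.28, and Anxa5, an abundant phospholipid-binding protein, by 0.04.

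Of 11 measured genes of the RANK and NF-kappaB route that precedes Spib in microfold cells, 1 was lower by 2-fold or more and none higher by as much, with a median of -0.22. With 5.88% of all genes lower by as much, a count of 1 in 11 is near the background. Traf3, Chuk and Nfkb1 were not analysed here. The 1 gene was Tnfrsf11a, which encodes RANK itself, at 10.35 on the WT-labelled array and 9.22 on the HDAC3cKO-labelled array, a difference of -1.13. Tnfsf11, which encodes RANKL, differed by 0.33, and Tnfrsf11b, its decoy receptor, by -0.38. The noncanonical NF-kappaB genes Map3k14, Nfkb2 and Relb differed by -0.14, -0.51 and -0.22, and Rela, of the canonical route, by 0.68. Aire, the regulator of tissue-restricted antigens that also follows RANK, was at 9.78 and 9.23, a difference of -0.55.

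Several of the 6 genes are shared with blood and vessel cells, so markers of those cells were read on the same arrays. Every marker has an intensity above 0 on both arrays. Detection calls were not used, so that does not show that a marker was detected. Of 62 measured markers in 6 blood cell lists, 19 were lower by 2-fold or more and none higher by as much, with a median of -0.68, beside 5.88% and 0.01 over all genes. All 6 pan-leukocyte genes were below 0, 2 of them lower by 2-fold or more, and their summed intensity was 11409 on the WT-labelled array and 5462 on the HDAC3cKO-labelled array. Among the 17 markers of macrophages and dendritic cells, 16 were below 0 and 6 lower by 2-fold or more, and their sum was 20116 and 8299. The 1 marker above 0 differed by 0.86. Lyz1 had the largest difference, -3.41, and its intensities of 4876 and 460 are a large part of the fall in the sum. Xcr1, Ctss and Mpeg1 differed by -1.95, -1.78 and -1.72. Lyz2, the myeloid lysozyme, was at 12.29 and 11.21.

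For the blood cells that share Spib, 3 of 9 B cell markers were lower by 2-fold or more, beside 5.88% of all genes, with a summed intensity of 3164 and 1512. They were Fcer2a, Cd79b and Blnk, with differences of -2.03, -1.76 and -1.76. Of 6 plasmacytoid dendritic cell markers, 1 was lower by 2-fold or more, beside 5.88% of all genes, and 1 was above 0. The lower one was Ccr9 at -1.23, and the median of the 6 was -0.23, with a sum of 4010 and 3420. Siglech, which defines those cells, was at 8.15 and 7.24. For Pglyrp1, 6 of 13 neutrophil markers were lower by 2-fold or more, beside the same 5.88%. Another 5 of the 13 were above 0, and the median was -0.34. Of the 13, 3 had a mean level at or above the median gene, and Cxcr2 and S100a8 were not among them. Mmp9, a secreted gelatinase, was at 10.97 and 8.93, Cxcr2, the neutrophil chemokine receptor, at 7.71 and 5.87, S100a8 at 7.67 and 6.03, and the lactoferrin gene Ltf at 9.37 and 8.18. The neutrophil sum was 7260 on the WT-labelled array and 8036 on the HDAC3cKO-labelled array, and it is dominated by Lcn2, which epithelia also express, at 11.72 and 12.66. The part of blood cells in the lower values of Gp2, Pglyrp1 and Spib was not tested.

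For Tnfaip2, which endothelium shares, all 10 endothelial markers were above 0 and 8 were higher by 2-fold or more on the HDAC3cKO-labelled array, beside 2.97% of all genes, with a summed intensity of 8184 and 17880. Of 9 fibroblast markers, 4 were higher by 2-fold or more, beside the same 2.97%, and 2 were below 0. The fibroblast sum was 7446 and 17943, and Dcn, with intensities of 3667 and 10000, is a large part of its rise. The part of endothelial cells and fibroblasts in the higher values of Tnfaip2 and Marcksl1 was not tested. Of 11 thymocyte markers, 1 was lower by 2-fold or more, near the 5.88% of all genes, with a sum of 4990 and 3762. Of 11 genes of medullary epithelium, 3 were lower by 2-fold or more, beside 5.88% of all genes, and none higher by as much, beside 2.97%, with a sum of 59766 and 64760 and a median of -0.27. The 3 were Cldn3, Krt14 and Cldn4, with differences of -1.39, -1.36 and -1.16, and 5 of the 11 were above 0. The sum is weighted towards the brightest genes of the list.

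**Figure D3:**
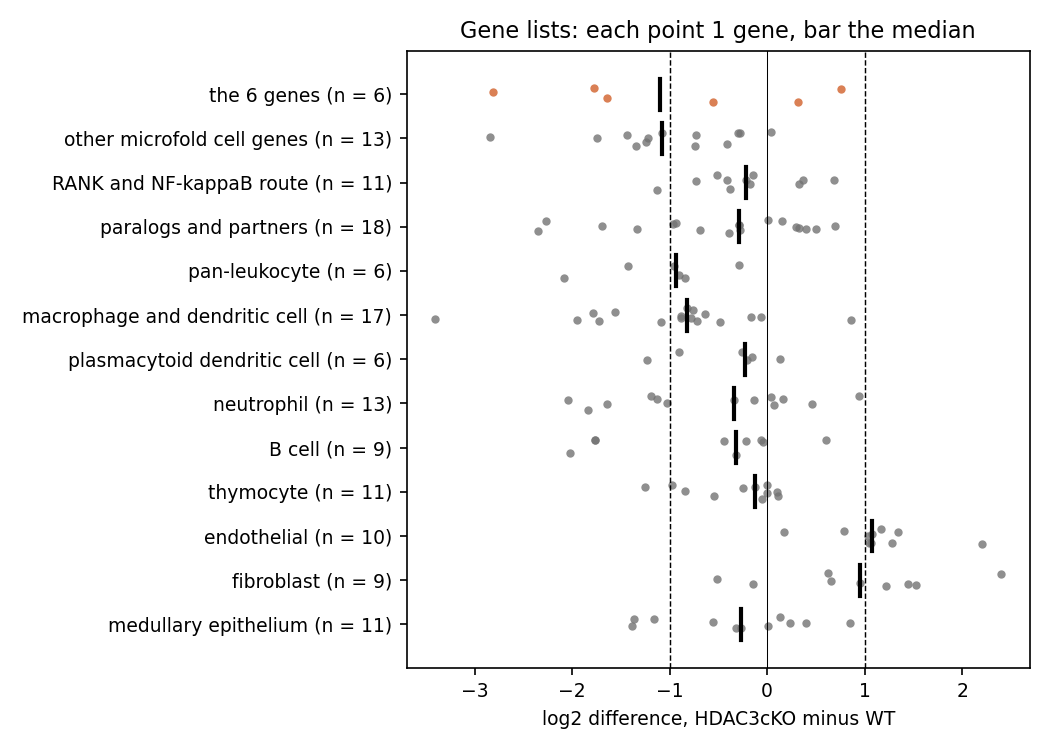
Difference HDAC3cKO minus WT (log2, x axis) of every measured gene in each list shown (y axis, with the number of genes). Each point is 1 gene, a black bar marks the list's median and dashed lines mark 2-fold. The list of tuft cell genes is not shown. The 6 microfold cell genes in orange spread from -2.81 to 0.76, and the other microfold cell genes centre at -1.08. The medians of the endothelial and fibroblast lists lie to the right of 0.

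Tuft cell genes, which mark another peripheral-type programme of the medulla, were lower throughout: all 10 were lower by 2-fold or more, beside 5.88% of all genes, with a median of -3.76, against -1.10 for the 6 microfold cell genes. Tuft genes ran from -4.79 to -2.06, so Gp2 alone of the 6 lay inside that range. No test of this difference was possible with 1 array a group.

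The genes whose pair of log2 levels was closest to each of the 6 were found by Euclidean distance over the 2 arrays. Predicted gene models, Riken clones and olfactory and vomeronasal receptor genes were left out of this search. These 2 arrays are too few to define a pattern, and levels of different probe sets are not comparable as amounts of RNA. Gp2 was closest to Rnase1, at a distance of 0.22, and Ly6g6c, at 0.29. Spib was closest to Scd1 at 0.08 and Nrep at 0.10, and Pglyrp1 to Nrep at 0.07 and to Spib itself at 0.10. Sox8 was closest to Onecut2 and Spns3, Tnfaip2 to Pqbp1 and Ube2h, and Marcksl1 to Fat1 and Clstn1, all within 0.03.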

How the data were processed

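The authors deposited linear intensities for 34760 probe sets on each of 2 arrays. Per the submitters' processing notes the authors used RMA; the sources used here do not give its version, its settings or the arrays normalized together. Log2 was taken here without a pseudocount or rescaling. Names come from the platform's annotation, which may be dated: 21640 had 1 symbol, 1321 had several and were not used, and 11799 were unnamed here. Of the 21640, 21553 matched a RefSeq gene table by Entrez identifier. For 954 genes with several probe sets, the one with the highest mean was used. No build is named for the values.

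Members and gene lists (14 lists, 157 genes, 150 measured) were chosen with earlier results of these data known. Named genes are the 6 members, up to 4 genes each way past 2-fold in each other list, a fixed set named whatever their values, and the 2 nearest genes of each member. Genes outside this rule (paralogs and partners such as Spic, Sox10, Rala and Trem1, and Serpinb1a, H2-M2, Prnp, Atoh8, Anxa5, Tnfsf11, Tnfrsf11b, Rela and Lcn2) were chosen after their values were seen. Promoter sequences are RefSeq's. The calculation was run on simulated data, where the median, quantile and loess scalings had to meet set limits. No limit was set there for the main calculation, which has no rescaling. Alternatives were other scalings, averaged probe sets, other fold thresholds and a level filter. Loess used statsmodels 0.14.6, tables pandas 2.3.3 and numpy 2.4.6, and plots matplotlib 3.10.9, under Python 3.11.15.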

Additional observations from a re-analysis of the deposited data

How the results depend on the processing

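The difference of each of the 6 genes kept its direction and its side of 2-fold under median centring, quantile normalization and loess scaling (span 0.3). Averaging probe sets could not change it, because each of the 6 genes has 1 probe set. Gp2 ranged from -2.89 to -2.71, Pglyrp1 from -1.86 to -1.67, Spib from -1.72 to -1.53, Sox8 from -0.57 to -0.45, Tnfaip2 from 0.26 to 0.42 and Marcksl1 from 0.67 to 0.86. Their median was -0.99 after median centring, just under 2-fold, a scaling that moves the median of all genes from 0.01 to 0.11. The count of 3 genes lower was the same at 1.5-fold and at 3-fold, beside 2238 and 575 of all 19937 genes at those thresholds. After loess, 2 thymocyte markers were lower by 2-fold or more.

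At 1.5-fold, 2238 genes were lower and 1661 higher, and at 3-fold 575 and 151. With genes at or above the median level alone, 673 were lower by 2-fold or more, beside 1173 of 19937 without that filter. The filter also takes the genes below the median level out of the total, so 673 and 1173 are not shares of the same total. Among the lists, the counts of lower genes that moved by over 1.5 times at a 1.5-fold threshold were 2 genes of the RANK route, 7 paralogs and partners, 13 macrophage and dendritic cell, 5 pan-leukocyte, 2 plasmacytoid dendritic cell and 3 thymocyte genes. At 3-fold, the counts that moved by as much were 2 other microfold cell genes, 3 neutrophil markers, 1 pan-leukocyte gene, and 0 of the RANK route, medullary epithelium, plasmacytoid dendritic cell and thymocyte lists. These counts move because the threshold does. No paired analysis was possible because each group has 1 array, and leaving out a replicate was not possible for the same reason. Detection calls were not used here, and low levels do not show absence.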

Other observations

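The genes next to each of the 6 on their chromosomes, 2 measured genes on either side by the RefSeq gene order, were read as well, a choice made after seeing the data. Of these 24 neighbours, 4 were lower by 2-fold or more and 1 was higher by 2-fold or more on the HDAC3cKO-labelled array, beside 5.88% and 2.97% of all genes, and their median was -0.03. Around Gp2, the orphan receptor gene Gpr139 differed by -1.31 and the receptor gene Gprc5b by 1.54, in opposite directions, and Pdilt, a testis protein, was at 5.43 and 5.45. Around Spib, the aspartic protease gene Napsa differed by -1.18, while the adjacent Pold1, a DNA polymerase subunit, differed by 0.01 and Mybpc2, a muscle protein gene, by 0.54. Near Sox8, Gng13, a G protein subunit of taste transduction, was at 11.15 and 8.39, a difference of -2.77, and the sperm flagellum gene Tekt4 differed by -1.16. No neighbour of Pglyrp1, Tnfaip2 or Marcksl1 among the 24 differed by 2-fold. Hdac1, the deacetylase gene next to Marcksl1, differed by -0.28.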
